A study of Homo sapiens with 24 samples.

Results

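The response of MDA-MB-157 cells to the BET inhibitor BETi-211 was described across the 14114 genes of the deposited table. The comparison used 6 of the 24 libraries of the series, namely the 2 libraries of cells given BETi-211 at 1000 nM and the 4 control libraries of the same line, all harvested after 3 h. The controls were 2 libraries with DMSO (0.05% v/v) and 2 with thalidomide at 1000 nM, which binds cereblon, the substrate receptor of a ubiquitin ligase, and the series description names both as controls. MDA-MB-157 is an established human breast cancer line, labelled as basal, negative for the estrogen and progesterone receptors and without overexpression of HER2. MDA-MB-231 and MDA-MB-468, with the same treatments and numbers of libraries, and the degrader BETd-246 at 100 nM served only to show where the response stood apart. The series description calls the 2 libraries of a group independent biological replicates. The values are FPKM, fragments counted per kilobase of a transcript and relative to library size, so that every value is a share of its library and not an absolute amount of RNA.

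BET proteins carry bromodomains that bind acetylated lysines of histones, and they bring the kinase P-TEFb and other elongation factors to promoters and enhancers. Inhibitors of the family occupy the bromodomains and release the proteins from chromatin while leaving them in the cell. In breast and other cancers such compounds are known for lowering genes under large enhancers and for raising HEXIM1, the protein that holds P-TEFb inactive together with the 7SK RNA.

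The labelled receptors were looked up first. ESR1 and PGR are not among the 14114 genes, and ERBB2, which codes for HER2, lay at 17.4 and 17.3 FPKM with BETi-211, against 17.6, 15.7, 18.5 and 19.1 FPKM in the controls. The keratin gene KRT18 had 279 and 287 FPKM with BETi-211, against 301, 304, 298 and 308 FPKM in the controls. VIM, a mesenchymal marker, had 2115 and 2094 FPKM with BETi-211, against 2002, 1986, 2018 and 1976 FPKM in the controls. The 21 measured epithelial and breast lineage genes, KRT18 included, summed to 477 and 495 FPKM with BETi-211, against 498 to 519 FPKM in the controls. KRT18 alone does not give the line an epithelial identity. Of the markers of other cell types, 0 of 4 adipocyte, 2 of 10 immune, 2 of 6 endothelial and 6 of 8 fibroblast genes were among the 14114. Their summed levels were 56.6 and 60.9 FPKM with BETi-211 against 54.0 to 63.6 FPKM in the controls for the immune list, whose PTPRC and CD3E are not in the table, 6.56 and 6.56 against 5.86 to 6.36 FPKM for the endothelial list, whose PECAM1, VWF and CDH5 are not in the table, and 499 and 502 against 493 to 533 FPKM for the fibroblast list. Their part in the results was not tested. In bulk samples fewer cells of a type and less RNA per cell cannot be told apart. The 2 BETi-211 libraries had FPKM sums of 503300 and 491510 against 471250 to 485490 in the controls, and medians over genes of 9.03 and 9.15 against 9.80 to 10.03. Replicates of a group correlated at r = 0.996 to 0.998 across genes, which are not independent.

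After 3 h the change was broad, and for most called genes it was well below 2-fold. With limma on log2(FPKM + 1) and a Benjamini-Hochberg adjusted p below 0.05, 6471 of the 14114 genes were called, 45.8% of those tested, of which 4364 (30.9%) fell and 2107 (14.9%) rose. Changes of at least 2-fold were balanced, with 129 falls (0.914%) and 130 rises (0.921%). The median change was -0.32 on the log2 scale among the genes that fell and 0.28 among those that rose, and -0.033 over all genes. The excess of falls depended on the scaling between libraries: 32.6% of the calls were rises as deposited, 48.8% after quantile normalization, 23.1% after column-total scaling, 50.5% after median-of-ratios scaling and 54.4% after upper-quartile scaling. As shares of all genes, the calls after these scalings were 25.8% lower and 24.6% higher with quantile normalization, 37.2% and 11.2% with column totals, 23.8% and 24.2% with median ratios and 23.3% and 27.8% with upper quartiles. The counts of the gene lists below stand beside these shares and the 30.9% and 14.9% of the deposited values. Their counts under the other scalings are given as ranges or for single scalings. The split of the 2-fold calls was 50.2% rises as deposited and 39.5% to 63.3% under those scalings. Both BETi-211 libraries lay below all 4 controls for 5261 genes (37.3%) and above all 4 for 3121 genes (22.1%). All log2 changes below are BETi-211 minus the mean of the DMSO and thalidomide groups on the log2(FPKM + 1) scale with their SE. Genes at low levels changed more in FPKM than this scale shows.

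**Figure D1:**
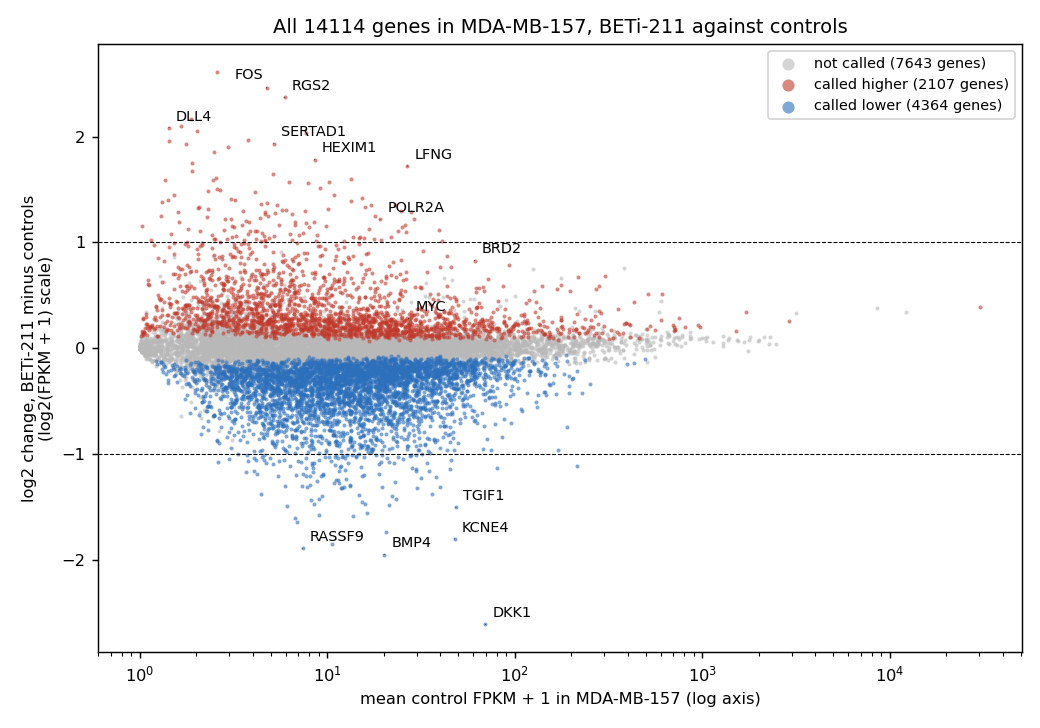
Change of each of the 14114 genes in MDA-MB-157 (log2, BETi-211 minus controls, on the log2(FPKM + 1) scale) against its mean control FPKM plus 1 on a log axis, 1 point a gene, with called rises in red, called falls in blue and dashed lines at 2-fold. The 129 falls and 130 rises of at least 2-fold lie beyond the dashed lines, and DKK1 at -2.61 is the lowest point.

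DKK1 and BMP4 had the largest falls. The largest falls and rises were picked among called genes whose BETi-211 libraries both lay beyond all 4 controls. That separation was therefore fixed by the choice and is no evidence for these genes. DKK1, a secreted antagonist of Wnt signalling (chr10:52314296-52318042 on GRCh38), had 9.96 and 10.7 FPKM with BETi-211, against 74.0 and 77.1 FPKM with DMSO and 60.7 and 63.2 FPKM with thalidomide. BMP4, a ligand of the BMP pathway (chr14:53949736-53958761), had 4.31 and 4.04 FPKM with BETi-211, against 20.1 and 19.4 FPKM with DMSO and 17.6 and 19.1 FPKM with thalidomide. The log2 changes were -2.61 ± 0.063 (adjusted p = 8.97e-14) for DKK1 and -1.95 ± 0.042 (adjusted p = 4.95e-14) for BMP4.

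RASSF9, a Ras association domain protein, had 0.977 and 0.981 FPKM with BETi-211, against 6.15 and 7.46 FPKM with DMSO and 5.91 and 6.02 FPKM with thalidomide, a change of -1.89 ± 0.062 (adjusted p = 1.44e-12). KCNE4, an auxiliary subunit of potassium channels, had 12.7 and 12.6 FPKM with BETi-211, against 48.7 and 48.1 FPKM with DMSO and 42.9 and 46.97 FPKM with thalidomide, a change of -1.81 ± 0.045 (adjusted p = 1.34e-13). HAS2, which makes hyaluronan, had 1.13 and 1.22 FPKM with BETi-211, against 6.57 and 7.01 FPKM with DMSO and 4.79 and 5.06 FPKM with thalidomide, a change of -1.64 ± 0.042 (adjusted p = 1.61e-13), and its thalidomide libraries stood below its DMSO libraries. For none of the 3 did the BETi-211 libraries come near a control, though lying beyond all controls was part of the choice.

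The other 10 of the 15 largest falls had changes between -1.86 and -1.47. They included transcription factors and chromatin proteins: ZNF689 with 1.19 and 1.20 FPKM with BETi-211, against 5.91, 5.48, 5.30 and 6.08 FPKM in the controls, ARID5B with 1.96 and 2.04 FPKM with BETi-211, against 8.49, 8.95, 7.19 and 7.40 FPKM in the controls, and ATOH8, a basic helix-loop-helix factor, with 1.16 and 1.17 FPKM with BETi-211, against 5.44, 5.02, 4.67 and 5.18 FPKM in the controls. TGIF1, a corepressor of SMAD proteins, had 15.7 and 16.4 FPKM with BETi-211, against 49.3, 47.6, 47.8 and 45.01 FPKM in the controls, a change of -1.51 ± 0.070 (adjusted p = 6.13e-11). In each of these the BETi-211 libraries lay below every control, as the choice required. COIL, which codes for the marker protein of Cajal bodies, had 6.51 and 6.75 FPKM with BETi-211, against 21.4, 21.97, 19.2 and 18.96 FPKM in the controls, and SEMA4C, a semaphorin, 3.54 and 3.53 FPKM with BETi-211, against 13.6, 11.3, 12.3 and 13.4 FPKM in the controls. PDE4B, a phosphodiesterase that degrades cyclic AMP, had 4.49 and 4.47 FPKM with BETi-211, against 16.4, 16.6, 13.3 and 14.7 FPKM in the controls. The remaining 3 were ALKBH4 (-1.86), a demethylase, KLHL9 (-1.74), an adaptor of a ubiquitin ligase, and METTL18 (-1.47), a histidine methyltransferase.

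The largest rise was that of the histone pseudogene HIST1H1PS1, followed by FOS and RGS2. FOS, a subunit of the AP-1 transcription factor (chr14:75278774-75282230), had 24.1 and 26.04 FPKM with BETi-211, against 3.26 and 3.21 FPKM with DMSO and 4.25 and 4.31 FPKM with thalidomide. RGS2, a regulator that shortens G protein signals (chr1:192809039-192812283), had 29.9 and 29.3 FPKM with BETi-211, against 4.49 and 5.37 FPKM with DMSO and 4.99 and 4.81 FPKM with thalidomide. The changes were 2.46 ± 0.18 (adjusted p = 1.07e-08) for FOS and 2.37 ± 0.076 (adjusted p = 1.27e-12) for RGS2. ARC, an immediate-early gene best known from neurons, had 5.89 and 6.30 FPKM with BETi-211, against 0.470 and 0.597 FPKM with DMSO and 0.692 and 0.858 FPKM with thalidomide, a change of 2.11 ± 0.063 (adjusted p = 5.72e-13).

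DLL4, a Notch ligand, was near 0 in the controls and had 4.93 and 5.15 FPKM with BETi-211, against 0.461 and 0.348 FPKM with DMSO and 0.423 and 0.469 FPKM with thalidomide. FGF18, a secreted growth factor, had 7.49 and 7.12 FPKM with BETi-211, against 0.992 and 0.741 FPKM with DMSO and 1.15 and 1.13 FPKM with thalidomide. Their log2 changes were 2.08 ± 0.049 (adjusted p = 7.79e-14) for DLL4 and 2.06 ± 0.073 (adjusted p = 3.13e-12) for FGF18. SERTAD1, a transcriptional coregulator reported to respond to BET inhibitors, had 18.1 and 19.3 FPKM with BETi-211, against 4.18, 3.16, 4.94 and 4.46 FPKM in the controls, a change of 1.94 ± 0.080 (adjusted p = 1.76e-11), and FAM222A had 13.6 and 13.8 FPKM with BETi-211, against 2.77, 2.25, 3.14 and 2.93 FPKM in the controls. The histone gene HIST2H4B had 30.5 and 30.1 FPKM with BETi-211, against 5.77, 5.68, 7.49 and 7.78 FPKM in the controls, and the pseudogenes HIST1H1PS1 and RP1-34B20.4, both on chromosome 6, changed by 2.62 ± 0.22 and 2.17 ± 0.12. HIST1H1PS1 had 15.6 and 13.05 FPKM with BETi-211, against 2.04, 0.599, 2.01 and 1.65 FPKM in the controls. Reads of these 3 may be shared with near-identical copies, so their values are uncertain. Chosen after their values were seen, SESN3 (10.3 and 9.58 FPKM with BETi-211, against 1.76, 2.19, 2.16 and 1.65 FPKM in the controls), MYLIP (7.56 and 8.32 FPKM with BETi-211, against 1.44, 1.36, 1.51 and 1.58 FPKM in the controls) and HBEGF, an EGF receptor ligand (29.2 and 29.5 FPKM with BETi-211, against 8.91, 8.49, 9.89 and 9.60 FPKM in the controls), also rose without overlap, whereas GAS1 (4.70 and 4.76 FPKM with BETi-211, against 16.7, 15.2, 13.5 and 14.3 FPKM in the controls) and the glucocorticoid receptor gene NR3C1 (21.1 and 20.6 FPKM with BETi-211, against 46.5, 48.4, 41.04 and 42.8 FPKM in the controls) fell.

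**Figure D2:**
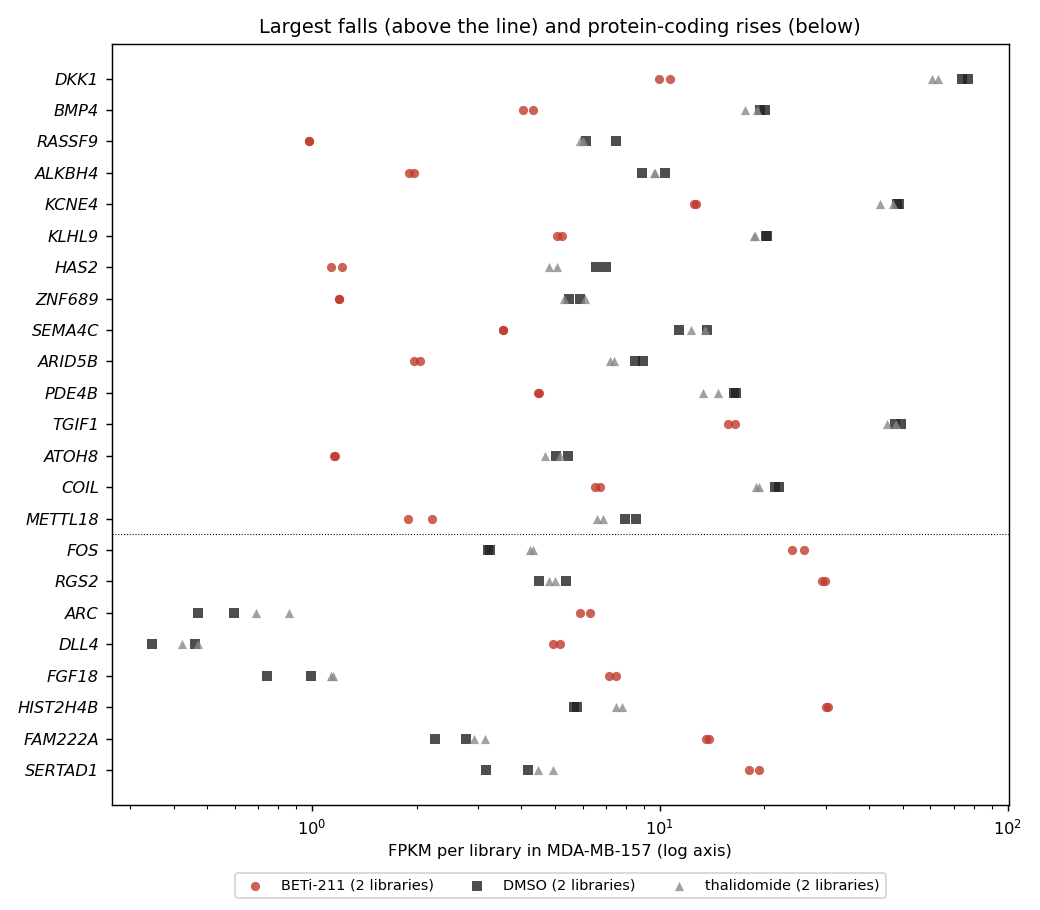
FPKM of the 15 largest falls (above the dotted line) and the 8 largest protein-coding rises (below it) in each of the 6 MDA-MB-157 libraries on a log axis, with circles for BETi-211, squares for DMSO and triangles for thalidomide. For each of the 23 genes both BETi-211 libraries lie outside the range of the 4 controls, which the rule that chose them required.

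The promoters of 3 of the largest falls and 3 of the largest rises are shown so that the sequences beside these extremes can be read. Each runs from 250 bases before to 50 bases after the start of the gene in RefSeq on GRCh38.p14, 5′ to 3′ on the strand of the gene, at chr10:52314031-52314330 (plus strand) for DKK1, chr14:53955001-53955300 (minus) for BMP4, chr12:85836360-85836659 (minus) for RASSF9, chr14:75278578-75278877 (plus) for FOS, chr1:192808789-192809088 (plus) for RGS2 and chr15:40929090-40929389 (plus) for DLL4. Capitals mark matches on either strand to the 6 motifs searched, the TATA box TATAAA, the cyclic AMP response element TGACGTCA, the AP-1 site TGACTCA, the E-box CACGTG, the ETS site CCGGAAGT and the GC box GGGCGG.
DKK1: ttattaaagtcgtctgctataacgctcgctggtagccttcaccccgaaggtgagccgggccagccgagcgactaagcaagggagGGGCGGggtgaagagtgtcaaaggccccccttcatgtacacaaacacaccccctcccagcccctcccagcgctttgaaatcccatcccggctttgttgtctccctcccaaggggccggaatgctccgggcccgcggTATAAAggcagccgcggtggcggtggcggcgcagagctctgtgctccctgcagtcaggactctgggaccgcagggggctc
BMP4: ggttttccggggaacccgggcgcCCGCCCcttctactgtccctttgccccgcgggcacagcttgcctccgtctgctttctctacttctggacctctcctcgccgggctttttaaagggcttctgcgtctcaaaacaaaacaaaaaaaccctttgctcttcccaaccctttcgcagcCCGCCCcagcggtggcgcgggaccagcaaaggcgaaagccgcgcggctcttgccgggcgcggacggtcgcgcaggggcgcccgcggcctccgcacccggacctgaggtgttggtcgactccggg
RASSF9: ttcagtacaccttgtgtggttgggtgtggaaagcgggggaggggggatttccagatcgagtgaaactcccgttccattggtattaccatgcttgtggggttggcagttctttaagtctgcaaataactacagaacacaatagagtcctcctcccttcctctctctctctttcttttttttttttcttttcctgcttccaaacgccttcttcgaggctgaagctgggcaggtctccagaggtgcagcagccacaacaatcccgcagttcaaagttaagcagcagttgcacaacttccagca
FOS: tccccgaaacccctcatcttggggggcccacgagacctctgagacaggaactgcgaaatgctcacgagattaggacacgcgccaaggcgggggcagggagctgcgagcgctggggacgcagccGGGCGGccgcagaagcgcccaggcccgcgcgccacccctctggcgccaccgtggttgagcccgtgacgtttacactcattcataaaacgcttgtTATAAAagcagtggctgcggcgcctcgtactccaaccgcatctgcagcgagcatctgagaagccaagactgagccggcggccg
RGS2: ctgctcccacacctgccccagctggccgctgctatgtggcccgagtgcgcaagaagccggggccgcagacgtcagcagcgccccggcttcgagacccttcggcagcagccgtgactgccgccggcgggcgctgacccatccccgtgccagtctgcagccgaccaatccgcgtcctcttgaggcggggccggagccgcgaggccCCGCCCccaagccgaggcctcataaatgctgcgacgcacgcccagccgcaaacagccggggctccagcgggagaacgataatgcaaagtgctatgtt
DLL4: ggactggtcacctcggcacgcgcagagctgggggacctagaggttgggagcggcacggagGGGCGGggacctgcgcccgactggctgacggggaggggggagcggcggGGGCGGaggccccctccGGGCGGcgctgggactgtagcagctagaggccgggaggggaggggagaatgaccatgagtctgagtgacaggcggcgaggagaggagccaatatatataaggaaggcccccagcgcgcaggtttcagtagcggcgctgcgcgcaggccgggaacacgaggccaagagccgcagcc
DKK1 and FOS, the largest fall and the largest protein-coding rise, each held 1 TATA box and 1 GC box in this window. BMP4 held 2 GC boxes, RGS2 1 and DLL4 3, and RASSF9 matched none of the 6. The BMP4 window, at its RefSeq start, lies inside the gene span given above rather than at its upstream end. Among all 35116 RefSeq promoters of this length, 11.5% held the TATA box, 45.0% the GC box, 7.26% the E-box, 4.95% the AP-1 site, 4.14% the ETS site and 1.85% the cyclic AMP response element. The GC content was 63.7% for DKK1, 66.0% for BMP4, 48.7% for RASSF9, 64.7% for FOS, 69.7% for RGS2 and 70.7% for DLL4. Motif shares were not compared between falls and rises, because the matching to promoters was incomplete. It reached 72.1% of the 2-fold falls and 67.7% of the 2-fold rises, against 73.1% of all genes.

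HEXIM1, the inhibitor of P-TEFb whose induction marks BET inhibition, rose without overlap between the groups. HEXIM1 (chr17:45148502-45152101) had 27.6 and 29.2 FPKM with BETi-211, against 7.26 and 7.16 FPKM with DMSO and 7.55 and 8.23 FPKM with thalidomide, a change of 1.78 ± 0.052 (adjusted p = 5.18e-13). Of 21 measured genes of P-TEFb and elongation, 9 fell and 5 rose, against 30.9% and 14.9% of all genes, with a median of -0.067 that other scalings moved between -0.12 and 0.021 (7 to 11 lower and 4 to 5 higher under other scalings). The 7SK capping enzyme gene MEPCE rose to 42.5 and 42.8 FPKM with BETi-211, against 33.6, 31.8, 32.5 and 34.98 FPKM in the controls, and AFF4, a scaffold of the super elongation complex chosen after its value was seen, by 0.37 ± 0.091. LARP7, which protects 7SK RNA, fell by 0.30 to 17.3 and 16.9 FPKM with BETi-211, against 21.2, 22.3, 20.1 and 21.4 FPKM in the controls. NELFA, a subunit of the negative elongation factor, had 2.12 and 2.44 FPKM with BETi-211, against 4.20, 3.81, 4.23 and 4.38 FPKM in the controls, a change of -0.65 ± 0.070 (adjusted p = 1.02e-06).

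Of the 12 RNA polymerase II subunit genes, POLR2A and POLR2L were called, both higher, against 14.9% of all genes higher and 30.9% lower. The share of rises was thus near that of all genes. POLR2A, the largest subunit and singled out after its value was seen, had 41.8 and 44.8 FPKM with BETi-211, against 16.97 and 16.3 FPKM with DMSO and 18.04 and 21.1 FPKM with thalidomide, a change of 1.22 ± 0.23 (adjusted p = 3.84e-04). In the list of 41 Mediator and RNA polymerase II subunits, 16 fell and 6 rose, against 30.9% and 14.9% of all genes, with a median of -0.085 that lay between -0.14 and 0.0055 (14 to 18 lower and 6 to 11 higher under other scalings). The 16 that fell were all Mediator subunits, the coactivator that joins transcription factors to the polymerase, such as MED7 (8.70 and 8.33 FPKM with BETi-211, against 17.4, 19.1, 15.7 and 15.9 FPKM in the controls), MED22 (6.05 and 6.13 FPKM with BETi-211, against 13.02, 11.2, 11.8 and 12.7 FPKM in the controls) and MED18 (4.77 and 5.34 FPKM with BETi-211, against 12.5, 11.4, 10.9 and 11.1 FPKM in the controls). MED10 and MED8 changed by -0.73 ± 0.047 and -0.64 ± 0.047. The division of this list into polymerase and Mediator genes was made after the calls were seen and was not tested.

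Among the BET genes themselves, BRD2 rose and BRD3 did not pass the test. BRD2 had 107 and 107 FPKM with BETi-211, against 54.4 and 56.8 FPKM with DMSO and 65.4 and 63.4 FPKM with thalidomide, a change of 0.83 ± 0.040 (adjusted p = 1.09e-10), with no overlap. BRD3 had 3.82 and 3.82 FPKM with BETi-211, against 3.13, 3.19, 3.48 and 3.71 FPKM in the controls, a change of 0.14 ± 0.078 (adjusted p = 0.158) whose call depended on the setting, since it passed after 3 of the 4 other scalings, in the fit of the 6 libraries alone and without either thalidomide library of MDA-MB-231. CRBN, which codes for cereblon, the target of thalidomide, fell to 13.96 and 14.2 FPKM with BETi-211, against 18.6 and 18.3 FPKM with DMSO and 16.5 and 16.7 FPKM with thalidomide, a change of -0.30 ± 0.044 (adjusted p = 3.71e-05). The ligase scaffold CUL4A changed by -0.26 ± 0.037, whereas the call of CUL4B did not hold. Its change of -0.096 ± 0.035 (adjusted p = 0.0348) became -0.0028 (adjusted p = 0.959) after upper-quartile scaling and -0.017 (adjusted p = 0.758) after median-of-ratios scaling, and 9 of 37 alternatives ended the call, among them the fit of the 6 libraries alone and leaving out either BETi-211 library.

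Of 6 measured genes on a list reported to respond to BET inhibitors, 4 rose and 1 fell, against 14.9% and 30.9% of all genes (1 lower and 3 to 5 higher under other scalings). SERPINI1, a serine protease inhibitor, had 2.73 and 2.69 FPKM with BETi-211, against 0.628 and 0.562 FPKM with DMSO and 0.612 and 0.689 FPKM with thalidomide, a change of 1.19 ± 0.048 (adjusted p = 1.27e-11). ZCCHC24 rose less, by 0.44 ± 0.076. SERTAD3 went the other way from SERTAD1, with 5.96 and 6.38 FPKM with BETi-211, against 11.5, 10.4, 10.1 and 10.2 FPKM in the controls, a change of -0.69 ± 0.041 (adjusted p = 9.65e-10). HIST2H2BE, another reported marker, had 95.6 and 91.7 FPKM with BETi-211, against 81.3, 78.2, 94.7 and 86.8 FPKM in the controls, so that its groups overlapped (adjusted p = 0.205).

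MYC, the transcription factor often described as a target of BET inhibition, did not fall in MDA-MB-157. It had 30.7 and 32.9 FPKM with BETi-211, against 25.3 and 24.01 FPKM with DMSO and 27.9 and 27.1 FPKM with thalidomide, a small rise of 0.28 ± 0.065 (adjusted p = 0.00215) with both BETi-211 libraries above all controls. Of 11 measured genes of the MYC and MAX network, 4 rose and 3 fell, against 14.9% and 30.9% of all genes (2 to 3 lower and 4 to 6 higher under other scalings). MXD1, a MAX partner that represses transcription, had 7.49 and 7.48 FPKM with BETi-211, against 2.73, 3.09, 3.37 and 3.41 FPKM in the controls, a change of 1.04 ± 0.045 (adjusted p = 3.04e-11), and MYCL, a relative of MYC, had 1.72 and 1.75 FPKM with BETi-211, against 0.608, 0.647, 0.715 and 0.563 FPKM in the controls. Of the same network, MGA and MLX fell, by 0.55 and 0.37.

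Immediate-early genes, which respond within minutes to growth factors and stress, mostly rose. Of 19 measured members 15 rose and 3 fell, against 14.9% and 30.9% of all genes, and their median was 0.68 (0.62 to 0.78, with 3 to 4 lower and 15 higher under other scalings). Besides FOS and ARC, the orphan nuclear receptor gene NR4A3 had 6.24 and 6.56 FPKM with BETi-211, against 1.34, 1.41, 1.60 and 1.498 FPKM in the controls, a change of 1.59 ± 0.058 (adjusted p = 4.64e-12). JUND had 43.7 and 43.5 FPKM with BETi-211, against 19.4, 16.6, 24.02 and 22.98 FPKM in the controls, a change of 1.05 ± 0.058 (adjusted p = 4.14e-10). EGR1 and ATF3, named after their values were seen, changed by 1.64 ± 0.15 and 1.37 ± 0.079.

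The 3 members that fell were FOSL1, FOSL2 and IER3. FOSL1, an AP-1 subunit tied to mesenchymal breast cancer cells, had 12.5 and 13.2 FPKM with BETi-211, against 25.3 and 22.6 FPKM with DMSO and 27.4 and 26.8 FPKM with thalidomide, a change of -0.93 ± 0.055 (adjusted p = 9.40e-10). FOSL2 had 24.3 and 25.2 FPKM with BETi-211, against 44.1, 42.2, 40.1 and 41.2 FPKM in the controls, a change of -0.74 ± 0.033 (adjusted p = 4.74e-11). FOS and FOSB were above all controls and both FOSL genes below them. IER3 changed by -0.30 ± 0.077, a call that was lost with DMSO alone as the control (adjusted p = 0.067).

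The phosphatases and Sprouty proteins that damp MAP kinase signalling were split. Of 15 measured genes 7 rose and 7 fell, against 14.9% and 30.9% of all genes (7 to 8 lower and 6 to 7 higher under other scalings). DUSP1, an immediate-early phosphatase, had 39.8 and 39.6 FPKM with BETi-211, against 13.8, 13.1, 14.6 and 15.5 FPKM in the controls, a change of 1.42 ± 0.055 (adjusted p = 7.77e-12), and DUSP14 had 26.8 and 27.5 FPKM with BETi-211, against 12.7, 11.9, 13.2 and 12.8 FPKM in the controls. DUSP4 had 4.39 and 4.45 FPKM with BETi-211, against 9.58, 9.08, 8.95 and 9.11 FPKM in the controls, a change of -0.91 ± 0.055 (adjusted p = 1.21e-09). DUSP16 and SPRY2 fell by 0.76 and 0.54.

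KLF genes, zinc finger factors of growth and differentiation, mostly fell: 7 of 12 were lower and 2 higher, against 30.9% and 14.9% of all genes, with a median of -0.35 (-0.41 to -0.26, with 7 lower and 2 to 4 higher under other scalings). KLF3 had 6.12 and 6.09 FPKM with BETi-211, against 12.3, 13.7, 11.96 and 12.1 FPKM in the controls, a change of -0.93 ± 0.054 (adjusted p = 8.02e-10). KLF11 had 9.35 and 9.82 FPKM with BETi-211, against 19.1, 18.4, 18.1 and 18.7 FPKM in the controls, and KLF4, a factor of epithelial and stem cells, had 3.19 and 3.19 FPKM with BETi-211, against 5.93, 6.70, 5.80 and 6.48 FPKM in the controls. The 2 that rose were KLF2 (0.89 ± 0.15) and KLF5 (0.48 ± 0.063).

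In the TGF-beta and BMP pathways, the genes called lower included SMAD6, SMAD7, SMURF1, SMURF2, TGIF1 and TGIF2, and those called higher included ID1, ID2 and ID4. Of 22 measured genes 10 fell and 6 rose, against 30.9% and 14.9% of all genes, with a median of -0.035 that changed sign between scalings (-0.092 to 0.024, with 7 to 11 lower and 5 to 9 higher under other scalings). TGIF2, a relative of TGIF1, had 3.65 and 3.86 FPKM with BETi-211, against 11.2, 10.96, 9.02 and 10.1 FPKM in the controls, a change of -1.25 ± 0.044 (adjusted p = 3.03e-12). SMAD7, the inhibitory SMAD, and SMURF2, a ubiquitin ligase for receptors and SMADs, fell by 0.78 and 0.50. ID2, which blocks basic helix-loop-helix factors, had 76.5 and 79.8 FPKM with BETi-211, against 41.4, 41.4, 42.95 and 43.6 FPKM in the controls, a change of 0.87 ± 0.049 (adjusted p = 5.28e-10), and BAMBI, a decoy receptor, had 19.4 and 19.2 FPKM with BETi-211, against 10.4, 9.78, 10.1 and 10.04 FPKM in the controls. INHBA, a subunit of activin outside the list, had 2.03 and 2.67 FPKM with BETi-211, against 7.57, 7.31, 5.96 and 6.05 FPKM in the controls.

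The Notch ligand genes DLL4 and JAG1 moved in opposite directions. Beside DLL4, the glycosyltransferase LFNG, which alters how Notch receptors read their ligands, had 86.6 and 87.1 FPKM with BETi-211, against 27.3 and 22.02 FPKM with DMSO and 26.7 and 26.9 FPKM with thalidomide, a change of 1.72 ± 0.077 (adjusted p = 4.43e-11). JAG1 fell to 29.3 and 29.5 FPKM with BETi-211, against 46.1, 44.4, 40.7 and 44.3 FPKM in the controls, a change of -0.56 ± 0.040 (adjusted p = 1.05e-08). The receptor gene NOTCH1 rose by 0.57 ± 0.072. Of the targets of Notch, HES1 rose by 0.55 ± 0.066 whereas HEY1 had 19.3 and 19.7 FPKM with BETi-211, against 46.6, 45.01, 41.1 and 43.6 FPKM in the controls, a change of -1.14 ± 0.045 (adjusted p = 9.85e-12). In all, 6 of 17 measured genes fell and 4 rose, against 30.9% and 14.9% of all genes, with a median of -0.038 whose sign differed between scalings (4 to 7 lower and 4 to 6 higher under other scalings).

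Of 20 measured Wnt genes 8 fell and 4 rose, against 30.9% and 14.9% of all genes, with a median of -0.11 (7 to 10 lower and 3 to 8 higher under other scalings). Beside DKK1, the ligand WNT5A had 4.92 and 5.04 FPKM with BETi-211, against 11.04, 11.2, 8.95 and 10.1 FPKM in the controls, a change of -0.91 ± 0.055 (adjusted p = 1.24e-09). RNF43, which removes Wnt receptors from the surface, changed by -0.57 ± 0.060 at about 1 FPKM in the controls. The receptor FZD7 had 15.8 and 17.2 FPKM with BETi-211, against 10.4, 10.1, 10.02 and 10.7 FPKM in the controls and rose by 0.63 ± 0.043.

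Targets of YAP and TEAD, which read cell shape and contact, did not move as one. 9 of 18 measured genes fell and 2 rose, against 30.9% and 14.9% of all genes (8 to 9 lower and 2 to 4 higher under other scalings). AJUBA, a LIM protein of the Hippo pathway, had 13.2 and 12.8 FPKM with BETi-211, against 37.3, 34.8, 33.4 and 35.6 FPKM in the controls, a change of -1.38 ± 0.040 (adjusted p = 4.59e-13). AMOTL2 and ANKRD1 had changes of -0.89 ± 0.043 and -0.80 ± 0.061. The 2 rises were the matricellular genes CTGF (13.7 and 14.95 FPKM with BETi-211, against 5.63, 5.73, 5.86 and 5.63 FPKM in the controls) and CYR61 (76.9 and 85.3 FPKM with BETi-211, against 35.5, 38.7, 42.8 and 41.8 FPKM in the controls), both without overlap with the controls.

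Of 10 measured transcription factors and markers of the mesenchymal state, 5 fell, namely SNAI2, ZEB1, ZEB2, TWIST1 and TWIST2, and 1 rose, against 30.9% and 14.9% of all genes. The transcription factor SNAI1 and VIM, CDH2 and SPARC did not pass the test, and after upper-quartile or median-of-ratios scaling 4 of the 10 fell and 4 rose. TWIST1 had 20.02 and 19.4 FPKM with BETi-211, against 41.8 and 39.7 FPKM with DMSO and 36.01 and 37.9 FPKM with thalidomide, a change of -0.94 ± 0.038 (adjusted p = 1.13e-11). ZEB2 had 7.38 and 7.78 FPKM with BETi-211, against 15.9, 15.98, 13.3 and 14.2 FPKM in the controls, a change of -0.88 ± 0.051 (adjusted p = 7.41e-10). SNAI2 had 25.5 and 25.7 FPKM with BETi-211, against 39.3, 40.1, 41.4 and 43.3 FPKM in the controls, a change of -0.66 ± 0.038 (adjusted p = 7.20e-10). The rise was fibronectin, FN1 (0.20 ± 0.074), a call lost under 9 of 37 alternatives, quantile normalization among them (adjusted p = 0.305).

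The count of collagen and matrix genes called depended on the scaling. Of 27 genes 1 fell and 4 rose as deposited, against 30.9% and 14.9% of all genes, 1 fell and 15 rose after median-of-ratios scaling and 1 fell and 17 rose after upper-quartile scaling. The fall was HAS2. TIMP3, an inhibitor of matrix proteases, had 6.51 and 6.32 FPKM with BETi-211, against 5.03, 5.03, 4.77 and 4.83 FPKM in the controls, a change of 0.33 ± 0.041 (adjusted p = 5.25e-06). FBN1 (0.18 ± 0.057) and POSTN (0.11 ± 0.038) were called, but both lost the call after column-total scaling and without the second BETi-211 library. Of 21 epithelial and breast lineage genes 3 fell and 3 rose, against 30.9% and 14.9% of all genes, and 15 were not called (2 to 4 lower and 2 to 6 higher under other scalings). TFAP2C and TFAP2A, AP-2 factors of the breast, fell by 0.42 and 0.43. SOX9, a factor of breast progenitors, had 5.08 and 5.80 FPKM with BETi-211, against 3.89, 4.30, 4.26 and 4.27 FPKM in the controls, a change of 0.31 ± 0.090 (adjusted p = 0.00946) that lost its call without the second BETi-211 library (adjusted p = 0.142). FOXA1 was called higher at levels below 0.3 FPKM in every library, and the call was lost after quantile normalization.

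Most measured genes of NF-kB and the cytokines it controls fell. 14 of 22 measured genes fell and 4 rose, against 30.9% and 14.9% of all genes, with a median of -0.33 (-0.38 to -0.24, with 13 to 14 lower and 4 to 5 higher under other scalings). The summed level of the list was nevertheless higher, at 686 and 733 FPKM with BETi-211, against 606, 542, 610 and 601 FPKM in the controls. The count of falls therefore does not describe the total. The chemokine CXCL1 had 2.53 and 3.11 FPKM with BETi-211, against 7.22, 7.96, 6.58 and 7.17 FPKM in the controls. CXCL2, a close relative, had 1.35 and 1.06 FPKM with BETi-211, against 3.92, 3.96, 3.44 and 3.42 FPKM in the controls. CCL2, which attracts monocytes, had 11.7 and 12.8 FPKM with BETi-211, against 21.5 and 23.2 FPKM with DMSO and 19.2 and 19.3 FPKM with thalidomide, a change of -0.72 ± 0.041 (adjusted p = 7.15e-10). CSF1, the growth factor of macrophages, had 8.14 and 7.97 FPKM with BETi-211, against 17.4, 16.1, 17.02 and 18.3 FPKM in the controls, a change of -1.01 ± 0.053 (adjusted p = 2.77e-10), and IL6 fell by 0.89. NFKBIE, an inhibitor of NF-kB, rose instead, to 12.5 and 13.2 FPKM with BETi-211, against 4.66, 3.79, 4.85 and 4.39 FPKM in the controls, a change of 1.35 ± 0.060 (adjusted p = 4.14e-11).

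Interferon genes were mixed, with 13 of 32 lower and 6 higher, against 30.9% and 14.9% of all genes, and a median of -0.027 whose sign differed between scalings (10 to 14 lower and 5 to 11 higher under other scalings). IFIT3, an antiviral effector, had 15.2 and 15.3 FPKM with BETi-211, against 38.1, 38.3, 35.2 and 35.6 FPKM in the controls, a change of -1.22 ± 0.066 (adjusted p = 3.59e-10). IRF1, a transcription factor of the response, had 13.1 and 12.4 FPKM with BETi-211, against 24.2, 22.3, 23.6 and 24.3 FPKM in the controls, a change of -0.84 ± 0.047 (adjusted p = 5.39e-10). IRF7 had 13.2 and 12.9 FPKM with BETi-211, against 4.76, 3.43, 5.41 and 5.23 FPKM in the controls, a change of 1.31 ± 0.080 (adjusted p = 1.54e-09), and SOCS1, a feedback inhibitor of cytokine receptors, rose by 0.97 ± 0.065.

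Stress genes moved in both directions. Among 22 measured members of the unfolded protein and integrated stress responses 9 rose and 5 fell, against 14.9% and 30.9% of all genes (4 to 5 lower and 8 to 15 higher under other scalings). ERN1, a sensor of unfolded proteins in the endoplasmic reticulum, had 10.5 and 10.5 FPKM with BETi-211, against 3.57, 3.47, 4.04 and 4.20 FPKM in the controls, a change of 1.25 ± 0.047 (adjusted p = 5.46e-12), and SESN2 had 16.2 and 16.4 FPKM with BETi-211, against 7.82, 7.05, 8.11 and 8.61 FPKM in the controls. HSPA5, the chaperone of that compartment, rose by 0.44 ± 0.058. TRIB3, a pseudokinase induced by ATF4, had 4.24 and 4.39 FPKM with BETi-211, against 12.3, 11.1, 11.7 and 11.03 FPKM in the controls, a change of -1.24 ± 0.064 (adjusted p = 2.32e-10), and CEBPG fell by 0.69.

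Of 22 heat shock and co-chaperone genes 8 rose and 3 fell, against 14.9% and 30.9% of all genes, and 11 were not called, with a median of 0.019 (-0.038 to 0.11, with 2 to 5 lower and 5 to 12 higher under other scalings). DNAJB1, a partner of HSP70, had 128 and 128 FPKM with BETi-211, against 81.4 and 81.8 FPKM with DMSO and 89.3 and 87.8 FPKM with thalidomide, a change of 0.59 ± 0.044 (adjusted p = 1.49e-08). HSPA1B had 84.8 and 83.1 FPKM with BETi-211, against 36.5, 32.6, 42.7 and 41.6 FPKM in the controls and HSPA1A 66.2 and 66.4 FPKM with BETi-211, against 37.3, 32.2, 42.4 and 43.2 FPKM in the controls. These HSP70 genes are near-identical copies, so the division between them is uncertain.

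Target genes of p53 were split as well, 8 higher and 6 lower of 22, against 14.9% and 30.9% of all genes (5 to 6 lower and 7 to 10 higher under other scalings). MDM2, the ubiquitin ligase for p53, had 17.5 and 15.8 FPKM with BETi-211, against 34.1 and 40.9 FPKM with DMSO and 31.2 and 30.7 FPKM with thalidomide, a change of -0.99 ± 0.072 (adjusted p = 1.18e-08). AEN, a nuclease, fell by 0.96, whereas PLK3 and SESN1 rose by 0.998 ± 0.073 and 0.85 ± 0.056. CDKN1A, which codes for the CDK inhibitor p21, had 65.5 and 68.9 FPKM with BETi-211, against 25.5 and 25.6 FPKM with DMSO and 28.1 and 28.7 FPKM with thalidomide, a change of 1.29 ± 0.058 (adjusted p = 4.98e-11). Of 7 CDK inhibitor genes 3 rose and 3 fell, against 14.9% and 30.9% of all genes (2 to 3 lower and 3 higher under other scalings). Among the falls was CDKN2C, which codes for an inhibitor of the G1 kinases, at 23.04 and 22.4 FPKM with BETi-211, against 34.5, 32.8, 31.7 and 33.05 FPKM in the controls. CDKN2B and CDKN1B changed by 0.24 ± 0.034 and -0.34 ± 0.070.

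Most measured genes of the later cell cycle fell. 20 of 29 measured genes of the S, G2 and M phases were lower and 2 higher, against 30.9% and 14.9% of all genes, with a median of -0.22 (-0.27 to -0.12, with 15 to 23 lower and 2 to 3 higher under other scalings). AURKA, a mitotic kinase, had 98.8 and 97.7 FPKM with BETi-211, against 224 and 224 FPKM with DMSO and 203 and 208 FPKM with thalidomide, a change of -1.12 ± 0.043 (adjusted p = 6.92e-12). PLK4, which drives the copying of centrioles, had 7.67 and 7.45 FPKM with BETi-211, against 15.3, 16.2, 14.7 and 14.8 FPKM in the controls, a change of -0.92 ± 0.045 (adjusted p = 1.14e-10). KIF23 and PLK1, which act in mitosis and cytokinesis, fell by 0.68 and 0.55. The rises were PCNA, the sliding clamp of replication (0.30 ± 0.068), and CDC6, which loads the replicative helicase (0.23 ± 0.039).

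In the G1 list 8 of 16 genes fell and 3 rose, against 30.9% and 14.9% of all genes (7 to 9 lower and 3 to 4 higher under other scalings). E2F2, a transcription factor of the G1 to S transition, had 2.38 and 2.31 FPKM with BETi-211, against 8.57 and 8.13 FPKM with DMSO and 7.32 and 7.92 FPKM with thalidomide, a change of -1.42 ± 0.038 (adjusted p = 2.37e-13). CDC25A, a phosphatase that activates CDKs, had 5.03 and 5.19 FPKM with BETi-211, against 8.41, 8.11, 8.46 and 8.96 FPKM in the controls, a change of -0.63 ± 0.048 (adjusted p = 2.07e-08). SKP2 and RBL1 fell by 0.38 and 0.35, and CCNE2, a cyclin of the same transition, rose by 0.51 ± 0.074. Of 23 measured genes of homologous recombination and the Fanconi pathway, 14 fell and 1 rose, against 30.9% and 14.9% of all genes, with a median of -0.20 (-0.25 to -0.11, with 11 to 15 lower and 0 to 4 higher under other scalings). XRCC2, a gene of homologous recombination, had 5.96 and 5.66 FPKM with BETi-211, against 10.2, 10.6, 9.81 and 9.72 FPKM in the controls, a change of -0.70 ± 0.048 (adjusted p = 5.31e-09). PALB2 and BARD1 fell by 0.61 and 0.56, and FANCF by 0.68. The rise, RAD52 (0.19 ± 0.066), lost its call under 6 of 36 alternatives, among them leaving out either BETi-211 library.

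Most measured survival genes of the BCL2 and IAP families fell, and MCL1 rose. 7 of 10 measured genes fell and 1 rose, against 30.9% and 14.9% of all genes, and 2 were not called, with a median of -0.32 (-0.38 to -0.23, with 7 lower and 1 to 2 higher under other scalings). BCL2L1, which codes for BCL-XL, had 8.55 and 8.16 FPKM with BETi-211, against 16.9 and 16.4 FPKM with DMSO and 14.9 and 15.96 FPKM with thalidomide, a change of -0.86 ± 0.036 (adjusted p = 2.03e-11). XIAP, a caspase inhibitor, had 18.04 and 18.4 FPKM with BETi-211, against 27.2, 28.7, 26.1 and 26.4 FPKM in the controls, and BIRC2, an IAP ubiquitin ligase, had 23.8 and 24.6 FPKM with BETi-211, against 40.8, 45.5, 39.2 and 38.8 FPKM in the controls. CFLAR, the decoy of the initiator caspase, fell by 0.58. MCL1 had 134 and 133 FPKM with BETi-211, against 104 and 111 FPKM with DMSO and 109 and 106 FPKM with thalidomide, a rise of 0.31 ± 0.045 (adjusted p = 2.57e-05) with no overlap.

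Pro-death genes were divided, 11 lower and 6 higher of 22, against 30.9% and 14.9% of all genes (8 to 12 lower and 5 to 7 higher under other scalings). BCL2L11, which codes for the BH3-only protein BIM, had 8.15 and 8.06 FPKM with BETi-211, against 3.29 and 3.16 FPKM with DMSO and 4.21 and 4.03 FPKM with thalidomide, a change of 0.97 ± 0.13 (adjusted p = 1.40e-05). PMAIP1, which codes for NOXA and binds MCL1, had 33.7 and 34.99 FPKM with BETi-211, against 21.2, 22.1, 20.8 and 19.7 FPKM in the controls, a change of 0.69 ± 0.056 (adjusted p = 4.29e-08). BIK rose by 0.81 ± 0.12 and RIPK1 by 0.63 ± 0.043. TNFRSF1A, the main TNF receptor, had 11.6 and 12.3 FPKM with BETi-211, against 28.3, 27.9, 25.8 and 27.4 FPKM in the controls, a change of -1.13 ± 0.040 (adjusted p = 2.86e-12), and FADD, an adaptor of death receptors, fell by 0.71.

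Receptor tyrosine kinases changed both ways, 7 lower and 6 higher of 21, against 30.9% and 14.9% of all genes (5 to 7 lower and 5 to 7 higher under other scalings). The share of falls was thus near that of all genes. FGFR3 had 4.66 and 4.82 FPKM with BETi-211, against 2.19, 1.98, 2.13 and 2.29 FPKM in the controls, a change of 0.87 ± 0.051 (adjusted p = 8.00e-10), and the VEGF receptor gene KDR, also an endothelial marker, had 3.09 and 3.21 FPKM with BETi-211, against 1.49, 1.84, 1.72 and 1.83 FPKM in the controls. MET, EPHA2 and PDGFRB fell by 0.33, 0.47 and 0.35. TEK, the other endothelial marker measured, went the opposite way from KDR, by -0.26 ± 0.037.

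Cholesterol synthesis genes were mostly higher where they were called, 11 of 23 higher and 3 lower, against 14.9% and 30.9% of all genes, with a median of 0.12 (0.068 to 0.23, with 2 to 3 lower and 6 to 15 higher under other scalings). INSIG1, which holds back the SREBP factors, had 14.1 and 14.1 FPKM with BETi-211, against 8.56, 8.45, 8.68 and 8.35 FPKM in the controls, a change of 0.67 ± 0.044 (adjusted p = 3.38e-09). IDI1, an isomerase of the same pathway, had 63.8 and 66.9 FPKM with BETi-211, against 46.2 and 48.5 FPKM with DMSO and 45.7 and 45.6 FPKM with thalidomide, a change of 0.48 ± 0.060 (adjusted p = 5.52e-06), and both BETi-211 libraries of both genes exceeded all 4 controls.

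Of 21 AHR and hypoxia genes 7 rose and 4 fell, against 14.9% and 30.9% of all genes (4 to 6 lower and 6 to 11 higher under other scalings). TIPARP, an ADP-ribosyltransferase induced by AHR, had 23.6 and 24.5 FPKM with BETi-211, against 7.87, 8.91, 9.96 and 9.50 FPKM in the controls, a change of 1.32 ± 0.057 (adjusted p = 2.99e-11), while CYP1B1, another AHR target, had 109 and 115 FPKM with BETi-211, against 169.5, 187, 206 and 195 FPKM in the controls, a change of -0.75 ± 0.076 (adjusted p = 5.37e-07). HIF1A and ARNT fell by 0.29 and 0.52, and NDRG1 rose by 0.66 ± 0.10. In the circadian list 6 of 14 genes fell and 5 rose, against 30.9% and 14.9% of all genes (3 to 6 lower and 4 to 5 higher under other scalings). PER1, a clock gene that responds quickly to signals, had 5.09 and 5.13 FPKM with BETi-211, against 1.86, 1.56, 1.82 and 2.004 FPKM in the controls, a change of 1.12 ± 0.059 (adjusted p = 2.81e-10), and CRY2 and ARNTL rose by 0.54 ± 0.063 and 0.50 ± 0.049.

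Whether ribosomal protein genes were called depended on the scaling. As deposited, 30.9% of all genes fell and 14.9% rose. Of 37 genes 0 fell and 4 rose as deposited, with a median of 0.10, whereas 26 rose after median-of-ratios scaling and 35 after upper-quartile scaling (median 0.20), and 0 fell under any of the 4. With quantile normalization 4 rose and the median was -0.0025. The rises as deposited were RPS15 (0.26 ± 0.056), RPS2 (0.15 ± 0.043), RPL3 (0.14 ± 0.044) and RPLP0 (0.18 ± 0.061), and each lost its call with thalidomide alone as the control or without the second BETi-211 library. Of 26 genes that build ribosomes in the nucleolus 12 fell and 4 rose, with a median of -0.10, and after upper-quartile scaling 10 fell and 10 rose. WDR43 had 33.9 and 33.1 FPKM with BETi-211, against 54.4, 57.01, 50.4 and 50.7 FPKM in the controls, a change of -0.65 ± 0.042 (adjusted p = 3.10e-09), and NOP16, a nucleolar protein, had 16.7 and 19.1 FPKM with BETi-211, against 30.9, 27.8, 25.2 and 26.2 FPKM in the controls. POLR1B and NOB1 fell by 0.39 and 0.46.

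The direction of the proteasome genes also turned with the scaling. The shares of all genes as deposited were 30.9% lower and 14.9% higher. Of 30 genes 4 fell and 1 rose as deposited, against 12 falls and 0 rises after column-total scaling and 3 falls and 10 rises after upper-quartile scaling, and the deposited values gave changes of -0.32 ± 0.048 for PSMD7, -0.17 ± 0.030 for PSMD11 and -0.25 ± 0.056 for PSMC2. The rise, PSMD2 (0.11 ± 0.033), lost its call after quantile normalization. Of 29 nuclear genes of the respiratory chain 2 fell and 1 rose as deposited, 0 fell and 8 rose after median-of-ratios scaling, and 0 fell and 14 rose after upper-quartile scaling. The calls of NDUFS1 (-0.14 ± 0.035), UQCRFS1 (-0.20 ± 0.053) and COX5A (0.10 ± 0.040) were each lost under at least 1 other scaling. Lysosome and autophagy genes gave 5 falls and 5 rises among 26 as deposited and 6 and 5 after column-total scaling, but 4 and 14 with quantile normalization, 3 and 15 with median ratios and 3 and 17 with upper quartiles. TFEB, the factor that drives lysosome genes, had 1.98 and 2.10 FPKM with BETi-211, against 4.20, 3.82, 3.62 and 4.33 FPKM in the controls, a change of -0.71 ± 0.069 (adjusted p = 3.11e-07). MAP1LC3B and SQSTM1, proteins of the autophagosome, rose by 0.55 ± 0.12 and 0.33 ± 0.077, and WIPI1 by 0.30 ± 0.048.

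Genes of the mitochondrial genome were called only in the upward direction. 10 of 15 rose and 0 fell, against 14.9% and 30.9% of all genes, with a median of 0.50 (0 lower and 8 to 13 higher under other scalings). MT-CO1, a subunit of cytochrome oxidase, had 796 and 656 FPKM with BETi-211, against 440.4 and 447 FPKM with DMSO and 602 and 553 FPKM with thalidomide, a change of 0.51 ± 0.11 (adjusted p = 0.00148). MT-CYB had 288 and 234 FPKM with BETi-211, against 136, 144, 222 and 199 FPKM in the controls, a change of 0.60 ± 0.15 (adjusted p = 0.00345), and MT-ND4L and MT-CO3 changed by 0.56 ± 0.14 and 0.44 ± 0.10. The thalidomide libraries stood above the DMSO libraries, and against thalidomide alone the calls of these 4 genes were lost, with changes of 0.33 for MT-CO1, 0.30 for MT-CYB, 0.35 for MT-ND4L and 0.26 for MT-CO3. Without the first BETi-211 library the 4 calls were lost too. The mitochondrial share of the FPKM sum was 12.1% and 10.8% with BETi-211, against 8.02% and 8.60% with DMSO and 10.4% and 9.50% with thalidomide, and its part in other results was not tested.

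Of 19 SR splicing factor and CLK genes 9 fell and 3 rose, against 30.9% and 14.9% of all genes, and 7 fell and 5 rose after upper-quartile or median-of-ratios scaling. SRSF4 had 20.6 and 19.8 FPKM with BETi-211, against 32.1, 31.7, 32.6 and 32.98 FPKM in the controls, a change of -0.65 ± 0.033 (adjusted p = 1.98e-10), and SRSF3 had 168 and 167 FPKM with BETi-211, against 238, 248, 205 and 213 FPKM in the controls. CLK3, a kinase of SR proteins, fell by 0.48, while CLK2 rose by 0.48 ± 0.083. Of 17 snoRNA host genes 7 rose and 2 fell, against 14.9% and 30.9% of all genes (1 to 2 lower and 6 to 12 higher under other scalings). SNHG12 had 23.4 and 21.4 FPKM with BETi-211, against 11.2, 12.1, 13.1 and 11.1 FPKM in the controls, a change of 0.86 ± 0.10 (adjusted p = 3.18e-06), and SNHG1 rose by 0.48 ± 0.072. SNHG15 fell by 0.22. The library kit does not mark strand, so the reads of antisense hosts such as SNHG12 and ZFAS1 (0.23 ± 0.046) cannot be told apart from those of the genes they overlap.

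Of 15 measured small noncoding RNA genes, which hold RMRP, RPPH1, RN7SL1 and RN7SL2 beside the spliceosomal RNAs and 7SK, 3 rose and 0 fell, against 14.9% and 30.9% of all genes (0 lower and 3 to 5 higher under other scalings). RNU4ATAC, an RNA of the minor spliceosome, had 14.9 and 14.3 FPKM with BETi-211, against 6.45, 7.94, 8.81 and 9.26 FPKM in the controls, a change of 0.78 ± 0.14 (adjusted p = 1.73e-04). RNU5D-1 and RNU12 changed by 0.79 ± 0.25 and 0.37 ± 0.12, but both lost the call in the fit of the 6 libraries alone and without 1 of the BETi-211 libraries. Histone genes gave 10 rises and 2 falls among 27, against 14.9% and 30.9% of all genes (1 to 5 lower and 10 to 15 higher under other scalings). HIST3H2A had 53.3 and 57.1 FPKM with BETi-211, against 25.1 and 24.4 FPKM with DMSO and 26.7 and 24.6 FPKM with thalidomide, a change of 1.10 ± 0.038 (adjusted p = 2.60e-12). HIST1H2AC and HIST1H2BG rose by 0.65 ± 0.074 and 0.43 ± 0.045, and the variant H2AFX, which marks DNA breaks, by 0.51 ± 0.045. Clustered histone genes have near-identical copies and their values are uncertain.

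**Figure D3:**
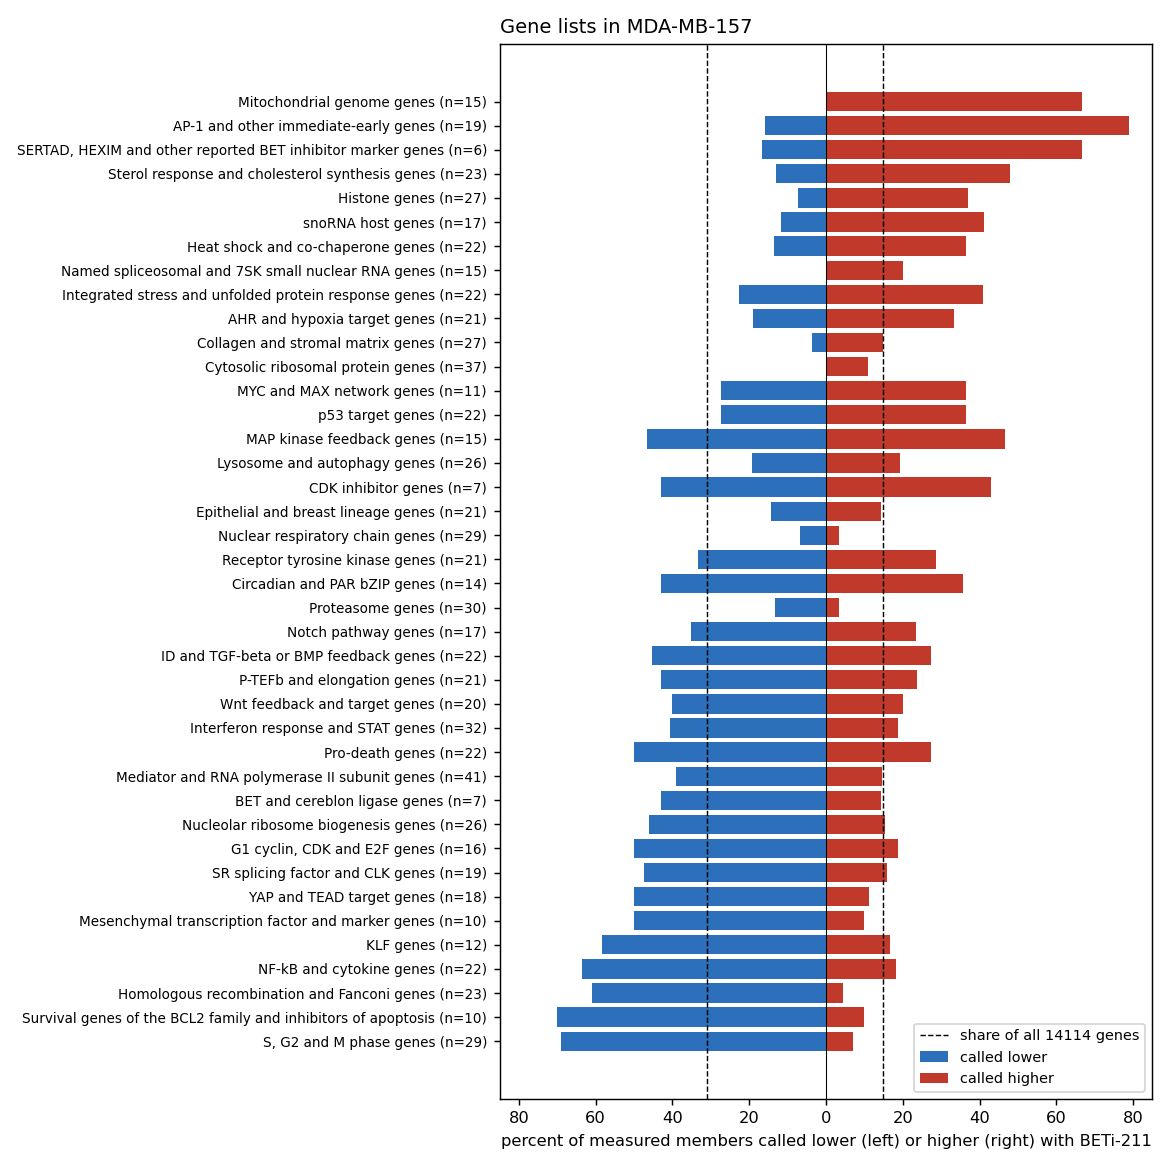
Share of the measured members of each of the 40 gene lists called lower (blue, to the left) and higher (red, to the right) with BETi-211 in MDA-MB-157, in percent, sorted by the difference of the shares, with n the measured members. Dashed lines mark the shares of all 14114 genes, 30.9% lower and 14.9% higher, and the 15 mitochondrial genes, with 10 higher and 0 lower, and the 19 immediate-early genes, with 15 higher and 3 lower, stand at the top.

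The genes with the largest changes were shorter and had fewer exons than the rest. Protein-coding genes made up 85.3% of all genes, 95.3% of the 2-fold falls and 83.1% of the 2-fold rises. Among protein-coding genes the median gene span was 17507 bp for the 2-fold falls and 17604 bp for the 2-fold rises, against 33228 bp for all. The largest number of exons in a transcript had a median of 4 in the falls and 5 in the rises, against 9 in all genes. Single-exon genes made up 5.69% of the falls and 11.1% of the rises, against 2.02% of all. The median control value was 10.6 FPKM in the 2-fold falls and 3.64 FPKM in the 2-fold rises, against 9.90 FPKM in all genes. On the log2(FPKM + 1) scale a gene below 1 FPKM in the controls can rise 2-fold but cannot fall 2-fold. Part of this gap in level was therefore fixed by how the sets were chosen. Genes with a ZNF symbol, mostly zinc finger repressors, made up 9.30% of the 2-fold falls (12 of 129) and 3.85% of the 2-fold rises (5 of 130), against 3.27% of all. These shares are descriptions without a test.

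The response was set against that of MDA-MB-231 and MDA-MB-468, each with its own controls. Of the 129 genes that fell at least 2-fold, 109 were also called lower in MDA-MB-231, as were 112 in MDA-MB-468, against 31.4% and 32.5% of all genes called lower in those lines, and 75 fell at least 2-fold in MDA-MB-231, as did 79 in MDA-MB-468. Those 75 were 58.1% of the MDA-MB-157 list and 36.2% of the 207 such falls in MDA-MB-231, and the 79 were 61.2% of the MDA-MB-157 list and 25.4% of the 311 in MDA-MB-468. Of the 130 genes that rose at least 2-fold, 113 were called higher in MDA-MB-231, as were 119 in MDA-MB-468, against 18.7% and 21.3% of all genes called higher there, with 75 at least 2-fold in each, 57.7% of the MDA-MB-157 list. The difference between lines was itself tested as an interaction. It was called for 2333 genes (16.5%) against MDA-MB-231 and for 3047 genes (21.6%) against MDA-MB-468, and the first count was 4394 without the second thalidomide library of MDA-MB-231, whose correlation with its replicate was 0.992.

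HEXIM1 rose more in MDA-MB-157 than elsewhere. Its change was 1.78 ± 0.052 in MDA-MB-157, against 0.64 ± 0.052 in MDA-MB-231 cells and 0.90 ± 0.052 in MDA-MB-468 cells, with differences of 1.14 ± 0.074 (adjusted p = 1.96e-08) and 0.88 ± 0.074 (adjusted p = 2.78e-07). BRD2 rose least in MDA-MB-157, with 0.83 ± 0.040 against 1.20 ± 0.040 in MDA-MB-231 cells and 1.43 ± 0.040 in MDA-MB-468 cells, differences of -0.37 ± 0.057 (adjusted p = 2.09e-04) and -0.60 ± 0.057 (adjusted p = 1.05e-06). CDKN1A also rose less, with differences of -1.26 ± 0.083 (adjusted p = 2.16e-08) to MDA-MB-231 and -0.98 ± 0.083 (adjusted p = 2.83e-07) to MDA-MB-468, all 3 lines being higher with BETi-211.

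MYC went in opposite directions. Its change was 0.28 ± 0.065 in MDA-MB-157, against -0.58 ± 0.065 in MDA-MB-231 cells and -1.58 ± 0.065 in MDA-MB-468 cells, where the mean levels were 50.8 FPKM with BETi-211 against 76.9 FPKM in the controls and 19.7 FPKM with BETi-211 against 61.0 FPKM in the controls. The differences were 0.86 ± 0.092 (adjusted p = 5.31e-06) and 1.86 ± 0.092 (adjusted p = 8.96e-10). DUSP5, a nuclear phosphatase of ERK, likewise rose to 8.72 and 9.16 FPKM with BETi-211, against 5.29, 5.34, 5.63 and 5.21 FPKM in the controls in MDA-MB-157 and had a change of -1.05 ± 0.052 in MDA-MB-468, a difference of 1.69 ± 0.073 (adjusted p = 2.16e-10). MYC and DUSP5 were therefore higher with BETi-211 in MDA-MB-157 and lower with it in MDA-MB-468. SOX9 differed from MDA-MB-231 by 1.99 ± 0.13 (adjusted p = 1.77e-08), with a change of -1.68 ± 0.090 there. RHPN2 had 41.8 and 42.9 FPKM with BETi-211, against 14.7, 14.7, 17.4 and 17.2 FPKM in the controls in MDA-MB-157, and its change of 1.35 ± 0.036 stood against -0.28 ± 0.036 in MDA-MB-468, a difference of 1.64 ± 0.051 (adjusted p = 5.07e-12). RGS2 rose in all 3 lines, by 2.37 ± 0.076 in MDA-MB-157, against 2.44 ± 0.076 in MDA-MB-231 cells and 0.88 ± 0.076 in MDA-MB-468 cells.

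On the log2(FPKM + 1) scale the falls of KCNE4, RASSF9 and BMP4 were larger in MDA-MB-157 than in both other lines. KCNE4 and RASSF9 were too low in the controls of the other lines to fall that far on this scale. Their differences between lines therefore cannot tell a weaker response from a low level. KCNE4 changed by -1.81 ± 0.045 in MDA-MB-157, while its mean level was 0.116 FPKM with BETi-211 against 0.119 FPKM in the controls in MDA-MB-231 and 0.123 FPKM with BETi-211 against 0.114 FPKM in the controls in MDA-MB-468. RASSF9 changed by -1.89 ± 0.062, against -0.049 ± 0.062 in MDA-MB-231 cells and -0.55 ± 0.062 in MDA-MB-468 cells, and its mean level was 0.0408 FPKM with BETi-211 against 0.0767 FPKM in the controls in MDA-MB-231 and 0.148 FPKM with BETi-211 against 0.683 FPKM in the controls in MDA-MB-468. BMP4 changed by -1.95 ± 0.042, against -1.58 ± 0.042 in MDA-MB-231 cells and -0.15 ± 0.042 in MDA-MB-468 cells, and its mean level in MDA-MB-468 was 4.83 FPKM with BETi-211 against 5.48 FPKM in the controls. The differences from MDA-MB-468 were -1.82 for KCNE4, -1.34 for RASSF9 and -1.80 for BMP4, and those from MDA-MB-231 were -1.80, -1.85 and -0.38 in the same order, all called by limma's interaction test. TWIST1, with -0.94 ± 0.038 in MDA-MB-157, averaged 0 FPKM with BETi-211 against 0 FPKM in the controls in MDA-MB-231 and 0.0285 FPKM with BETi-211 against 0.00464 FPKM in the controls in MDA-MB-468.

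CDKN1C, which codes for the CDK inhibitor p57, showed the largest difference downward from MDA-MB-231 among the genes named. It had 10.04 and 9.88 FPKM with BETi-211, against 13.2, 11.3, 11.7 and 12.2 FPKM in the controls in MDA-MB-157, a change of -0.25 ± 0.079 (adjusted p = 0.0145), against 1.94 ± 0.079 in MDA-MB-231 cells and 1.59 ± 0.079 in MDA-MB-468 cells. The differences were -2.20 ± 0.11 (adjusted p = 2.00e-09) and -1.84 ± 0.11 (adjusted p = 7.97e-09). PGF, a growth factor of the VEGF family, had 71.0 and 71.9 FPKM with BETi-211, against 113, 101, 102 and 112 FPKM in the controls in MDA-MB-157 and averaged 3.89 FPKM with BETi-211 against 0.275 FPKM in the controls in MDA-MB-468, a difference of -2.52 ± 0.086 (adjusted p = 1.05e-11). TNFSF9, a ligand of T cell costimulation, rose in all 3 lines but less in MDA-MB-157, by 0.87 ± 0.077 against 2.88 ± 0.077 in MDA-MB-231, a difference of -2.004 ± 0.11 (adjusted p = 2.97e-09). SERPINI1 rose by 1.19 ± 0.048 against 2.45 ± 0.048 in MDA-MB-468, a difference of -1.25 ± 0.068 (adjusted p = 2.20e-09). Its control level in MDA-MB-157 was low, so on this scale the difference cannot tell a weaker response from a low level.

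**Figure D4:**
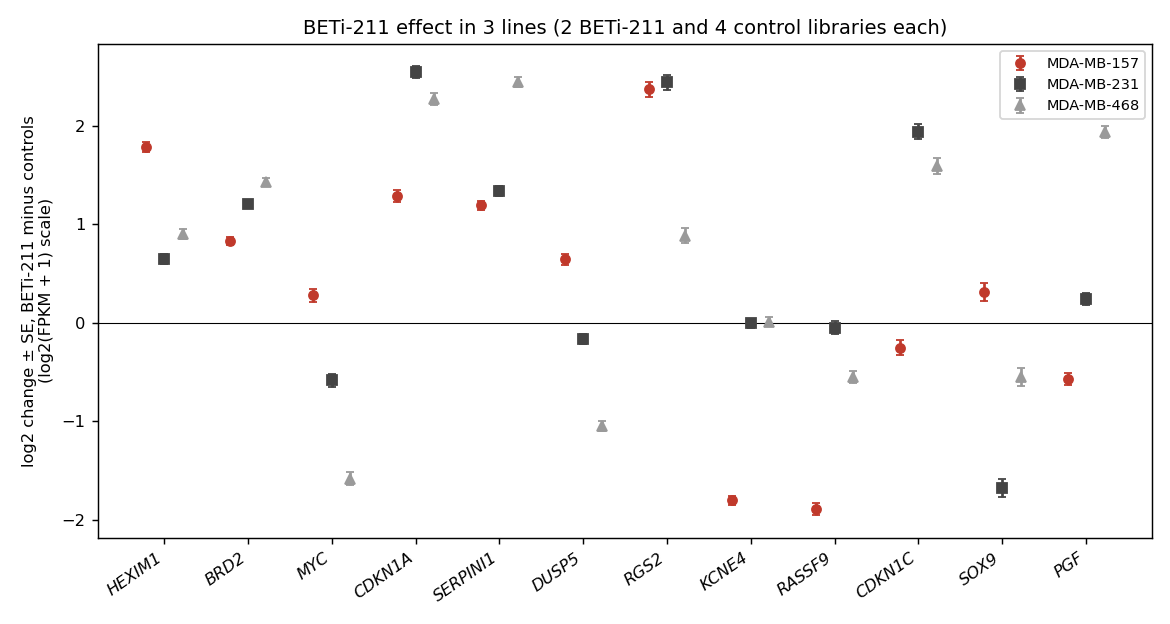
Change with BETi-211 (log2, BETi-211 minus controls, on the log2(FPKM + 1) scale, with SE bars) of 12 genes in MDA-MB-157 (circles), MDA-MB-231 (squares) and MDA-MB-468 (triangles), each from 2 BETi-211 and 4 control libraries. MYC lies above 0 in MDA-MB-157 and below 0 in the other lines, and CDKN1C lies below 0 in MDA-MB-157 and above 0 in the others.

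Values with the degrader BETd-246 in MDA-MB-157 are given beside those of BETi-211 without a comparison, because the dose was 100 nM rather than 1000 nM and both compounds share the 4 control libraries. The 129 falls of at least 2-fold with BETi-211 had a median change of -1.15 with BETi-211 and -0.97 with BETd-246. The 130 rises had medians of 1.23 with BETi-211 and -0.20 with BETd-246. Both sets were chosen by their change with BETi-211, so a BETi-211 median beyond 2-fold was fixed by the choice. HEXIM1 changed by 1.78 with BETi-211 and -0.97 with BETd-246, with a mean of 3.36 FPKM there. The values were 0.83 and -1.15 for BRD2, 0.28 and -1.91 for MYC, and 0.31 and -1.72 for MCL1, BETi-211 first. FOS and ARC were high with both, at 2.46 and 3.35 for FOS and 2.11 and 3.24 for ARC. RGS2 had 2.37 with BETi-211 and -0.70 with BETd-246, and DLL4 had 2.08 and -0.040.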

How the data were processed

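RNA depleted of ribosomal RNA (Ribo-Zero) from 24 samples of 3 lines was sequenced with a TruSeq v2 kit and random primers, per the labels' protocols. The kit does not mark strand. The submitters' processing notes name bcl2fastq 2.17.1.14, Bowtie 0.12.8 and GRCh38.p5, while which program and annotation gave the values is not stated in those sources. The authors deposited 1 table with 24 columns of FPKM. The unit was taken from the values, and the table holds no counts, so the depth of each library is unknown and no counting interval is given.

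log2(FPKM + 1) was fitted with limma 3.58.1 in R 4.3.3 over all 14114 genes and 24 libraries in 12 groups, with a variance trend, 12 residual and 3.32 prior degrees of freedom, and p-values adjusted over all genes at 0.05. The contrasts were BETi-211 minus the mean of DMSO and thalidomide in MDA-MB-157, and its difference from the same contrast in each other line. In simulated data of this design 95% of 100 genes changed by 0.5 and 98% of 100 changed by 1 were recovered. False calls numbered 9. The noise was normal, and far fewer genes changed than were called in the real data. The changed genes all lay above 5 FPKM in the controls, so these shares do not hold for genes at lower levels. Gene spans and types came from GENCODE 29 on GRCh38, which held 13951 of the identifiers. Alternatives were other pseudocounts, a filter of 5 FPKM, 4 other scalings, either control alone, the 6 libraries alone, other variance models, a replicate block and leaving out each of the 24 libraries.

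The comparison and the gene lists were chosen with earlier results of these data known. Named genes are called genes of at least 5 FPKM in the higher group mean with both BETi-211 libraries beyond all controls (the 15 largest falls, 10 largest rises and 8 largest protein-coding rises), a set of single genes, up to 4 called members with the smallest adjusted p of each of 40 lists, and 4 genes each way for each difference between lines. These are 190 genes, a few of which are not reported here. A further 40 were chosen after their values were seen: POLR2A, EGR1, ATF3, NR4A1, IER3, CTGF, CYR61, KLF2, KLF5, KLF6, CXCL1, IL6, BAMBI, SMAD7, HES1, NOTCH1, MED18, CCNE2, PCNA, CDC6, BIK, FADD, AFF4, SPRY2, HSPA5, FN1, RAD52, BIRC5, SQSTM1, MAP1LC3B, NDRG1, CLK2, HBEGF, GAS1, INHBA, NR3C1, SESN3, MYLIP, PDGFRB and TEK.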

Additional observations from a re-analysis of the deposited data

Results flagged for a closer look

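The change with BETi-211 in MDA-MB-157 differed from that in another line in the following results, each by a test of the difference itself (limma interaction, Benjamini-Hochberg adjusted p below 0.05). Against MDA-MB-231 the difference was called for 2333 genes, and against MDA-MB-468 for 3047 genes. The values are the log2 change in MDA-MB-157 minus that in the other line, on the log2(FPKM + 1) scale.

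Against MDA-MB-231 the difference was 2.62 for HIST1H1PS1, 2.22 for RP1-34B20.4, 1.99 for SOX9, 1.66 for MT-TI, 1.14 for HEXIM1, 0.86 for MYC and 0.61 for FOSL1. It was -2.20 for CDKN1C, -2.004 for TNFSF9, -1.85 for RASSF9, -1.80 for KCNE4, -1.26 for CDKN1A, -0.47 for HIST2H2BE, -0.37 for BRD2 and -0.24 for E2F2. HIST1H1PS1 is listed at 0 FPKM in both groups of MDA-MB-231, and RP1-34B20.4 averaged 0.0442 FPKM with BETi-211 against 0.0783 FPKM in the controls there. RASSF9 and KCNE4 averaged below 0.2 FPKM in both groups of MDA-MB-231. MT-TI, a mitochondrial transfer RNA gene, had 9.04 and 6.07 FPKM with BETi-211, against 2.40, 1.62, 2.48 and 2.35 FPKM in the controls in MDA-MB-157.

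Against MDA-MB-468 the difference was 1.86 for MYC, 1.69 for DUSP5, 1.64 for RHPN2, 1.49 for RGS2, 0.88 for HEXIM1 and 0.29 for E2F2. It was -2.52 for PGF, -1.89 for HIST1H2BE, -1.84 for CDKN1C, -1.82 for KCNE4, -1.25 for SERPINI1, -0.98 for CDKN1A, -0.60 for BRD2 and -0.36 for HIST2H2BE. KCNE4 was barely expressed in either group of MDA-MB-468. HIST1H2BE, a histone gene with near-identical copies, had 92.7 and 99.7 FPKM with BETi-211, against 107, 104, 107 and 106 FPKM in the controls in MDA-MB-157. E2F2 stood above MDA-MB-468 and below MDA-MB-231 in this measure. A search for single libraries that stand apart within a group needs at least 4 libraries and was not made, since each group holds 2.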

How the results depend on the processing

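Of 252 single-gene results 0 reversed, and 223 kept their call under each alternative that gave them a value. The filter of 5 FPKM gave a value for 228 of them, and the fit of the 6 libraries gave none for differences between lines. Leaving out a BETd-246 library, or a library of another line in results that do not use it, was added after seeing the data. The number of genes called higher, 2107, became 3471 after quantile normalization, 3920 after upper-quartile scaling and 3421 after median-of-ratios scaling. A pseudocount of 0.1 gave 284 genes lower and 222 higher by at least 2-fold, where 129 and 130 were reported, because low values then weigh more. Leaving out 1 library at a time gave 3476 to 4805 genes called lower, 1525 to 2549 higher, 119 to 130 lower and 127 to 140 higher by at least 2-fold, 1628 to 4394 differing from MDA-MB-231 and 2239 to 3984 from MDA-MB-468. The 4805 and 2549 came without the second thalidomide library of MDA-MB-231, and without the first they were 4804 and 2549. The 4394 came without the second thalidomide library of MDA-MB-231, and the cause was not tested. Where 1 BETi-211 library remained, it was assumed to vary like the other groups. The calls lost in some alternative were mostly small changes: CUL4B, RPL3, RPLP0, RPS2, RPS15, PSMD2, COX5A, NDUFS1, UQCRFS1, FN1, FBN1, POSTN, RAD52, IER3, SOX9, FOXA1, RNU12, RNU5D-1 and the 4 mitochondrial genes named. BRD3 and HIST2H2BE became called under some scalings. The differences of E2F2 from both other lines, of HIST2H2BE from both and of MT-TI from MDA-MB-231 lost their call under some alternative. Correlations of the deviations of same-numbered libraries lay between -0.11 and 0.15 in MDA-MB-157, and the main fit has no pairing. Whether the numbers pair cultures is not stated. These correlations, over genes that are not independent, cannot decide it. With the replicate block 4338 genes were lower and 2127 higher, 2331 differed from MDA-MB-231 and 2964 from MDA-MB-468, and the difference of HIST2H2BE from MDA-MB-468 lost its call (-0.36, adjusted p = 0.0555). Without counts, the error of low values cannot be separated from the spread between libraries.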
